A study of Homo sapiens with 2 samples.

Results

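The genes described here are 10 nuclear components of the Wnt pathway: the TCF/LEF DNA-binding factors TCF7, TCF7L1, TCF7L2 and LEF1, the Groucho-type corepressors TLE1, TLE2, TLE3 and TLE4, and the corepressors CTBP1 and CTBP2. They were chosen by name, through the GENCODE symbols of the gene identifiers, from 58735 genes listed in both deposited tables. The shSIK2 library came from BT549 cells, a mesenchymal triple-negative breast cancer line, carrying a short hairpin RNA against the salt-inducible kinase SIK2, and exposed to the ligand Wnt3a for 2 h. The scrambled library came from BT549 cells with a control hairpin and the same Wnt3a exposure. Since both cultures received Wnt3a, a response to the ligand cannot be separated here. How many hairpins were used, and whether the cells were pooled or clonal, is not stated in the labels. Each group was 1 library, so no difference could be set against replicate spread, and every interval below covers counting error only. In such bulk RNA, fewer cells of a type and less RNA per cell cannot be told apart.

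TCF and LEF proteins bind DNA through an HMG box and act as a switch. Without beta-catenin they recruit TLE proteins, named after Drosophila Groucho, which bring histone deacetylases and hold target genes silent. When Wnt ligands stabilise beta-catenin, it takes the place of TLE on the TCF protein and recruits coactivators. TCF7L1 acts mostly as a repressor, TCF7 and LEF1 mostly as activators that are themselves Wnt target genes in many tissues, and TCF7L2 can do both. CTBP1 and CTBP2 are NAD(H)-binding corepressors that work with zinc-finger repressors such as ZEB1 as well as with some TCF isoforms.

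Levels are given as FPKM, in effect a read count per length of exon, and the reads behind them were recovered from the tables as whole numbers. A read had the same weight in both libraries, so ratios as deposited are ratios of reads, not corrected for depth. Recovered depth was 16347399 reads in the shSIK2 library and 18019225 in the scrambled library. Ratios are of shSIK2 over scrambled as deposited; scaling both libraries to equal total reads multiplies each ratio by 1.10 (0.14 on the log2 scale). Genes reaching 1 FPKM in either library are called measured. They are called higher or lower in the shSIK2 library when FPKM + 0.1 differed by 2-fold or more, a scale that understates differences of low genes. SIK2 itself stood at 3.56 FPKM in the shSIK2 library and 7.80 FPKM in the scrambled library, a ratio of 0.457 (95% counting interval 0.414 to 0.503), and 0.503 at equal totals. Of 4 markers of mesenchymal cells all were measured. VIM and CD44 exceeded 100 FPKM in both libraries and ZEB1 had 26.1 FPKM in the shSIK2 library and 29.6 FPKM in the scrambled library. SPARC, a matrix protein gene, differed by more, with 189 FPKM in the shSIK2 library and 38.1 FPKM in the scrambled library, a ratio of 4.95 (4.76 to 5.14). None of 5 epithelial and luminal markers reached 1 FPKM, and together they had 2 reads in the shSIK2 library and 42 in the scrambled library. EPCAM and PGR had 0 reads in both; ESRP1 had 0 reads in the shSIK2 library and 25 in the scrambled library, CDH1 had 2 and ESR1 0 in the shSIK2 library, and CDH1 had 11 and ESR1 6 in the scrambled library. Their part in the differences below was not tested.

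Of the 10 genes, 9 had reads and all 9 were measured; LEF1 had none. TCF7, TCF7L1 and TLE3 reached 1 FPKM in the shSIK2 library only. TCF7 and TLE3 were higher by 2-fold or more in shSIK2 cells, TLE4 was lower by 2-fold or more, and the other 6 measured genes lay between. Across all 12866 measured genes, 11.0% were higher and 8.28% lower by that rule. With both libraries at equal totals the same 2 genes were higher and the same gene lower, where the shares of all measured genes were 13.4% and 6.04%. At 1.5-fold 3 of the 9 were higher and 3 lower, against 19.7% and 21.3% of all measured genes. Large ratios were more common among weakly expressed genes: of the 2846 genes whose higher level was 1 to 2.5 FPKM, the range that holds TCF7 and TLE3, 22.9% were higher and 11.9% lower. Among the 5617 genes between 5 and 25 FPKM, the range that holds TLE4, 6.00% were higher and 6.59% lower. The median log2 ratio of the 9 genes was 0.35, against -0.11 for all measured genes. Against these shares, 2 higher and 1 lower of 9 genes is no result about the set, and the account below is of the individual genes.

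**Figure D1:**
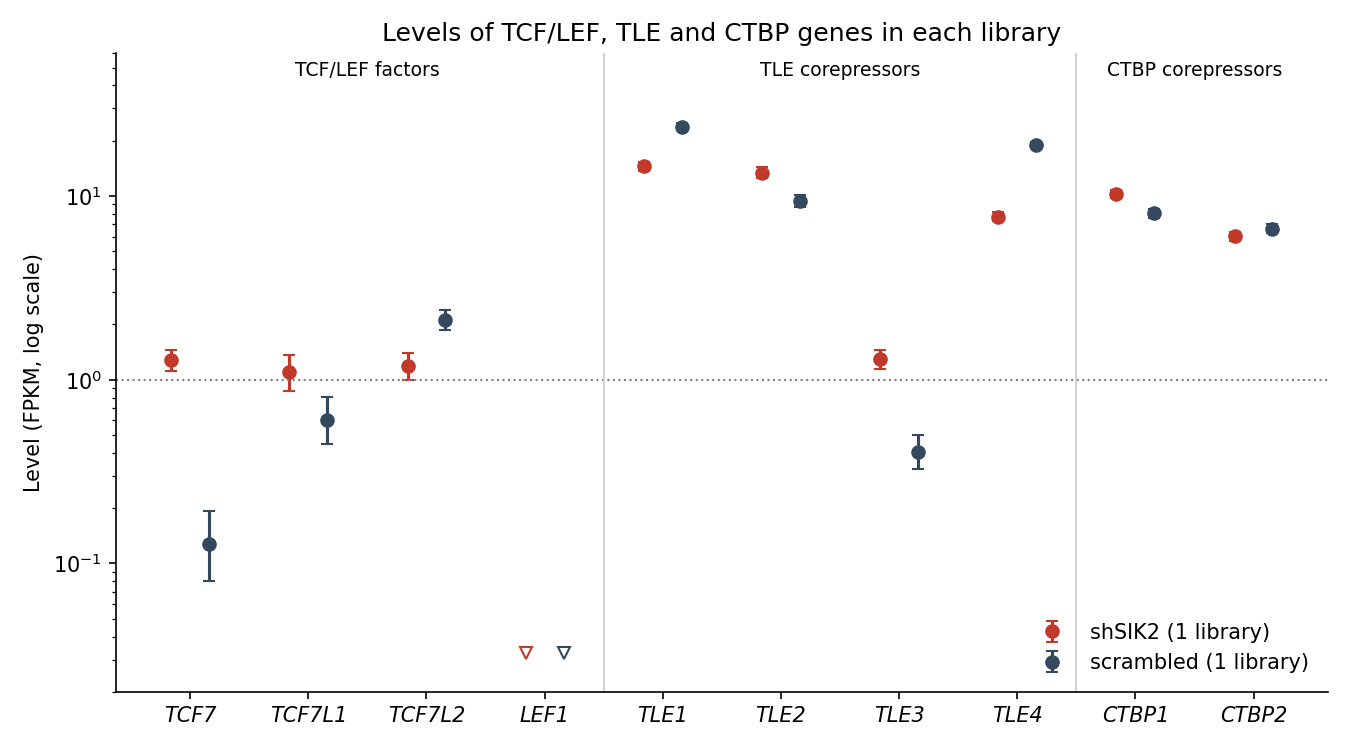
Level of each gene in the shSIK2 library (red, left of each pair) and the scrambled library (dark blue) on a log axis of FPKM; bars are exact 95% counting intervals, open triangles mark the level of 3 reads where a gene had none, and the dotted line is the minimum of 1 FPKM. TCF7, TCF7L1 and TLE3 lie below the minimum in the scrambled library and just above it in the shSIK2 library, whereas TLE1 and TLE4 are the 2 highest genes in the scrambled library.

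Because TCF7 itself is a known target of TCF and beta-catenin, the RefSeq promoter windows of all 10 genes (23 windows, GRCh38.p14) were searched for the TCF core on both strands. The forms searched for were CTTTGAA and CTTTGAT. Further forms were CTTTGTA and CTTTGTT, all in the 250 bases before each annotated start. A match was present in 4 of the 23 windows, at an annotated internal start of TCF7, TCF7L2, TLE4 and CTBP2. Of all 35116 RefSeq windows 11.96% held one. The windows of TCF7, TCF7L2 and TLE4 are shown because these genes had the most unequal levels among those with a match, together with the stretch of the upstream TCF7 window that lies outside annotated exons. That window is upstream only relative to the other TCF7 window. It too lies inside the annotated gene, and 75 of its 250 bases are exonic. Capitals mark the match, read 5′ to 3′ on the strand of the gene; no match overlapped another.
TCF7 upstream start, chr5:134115388-134115562, plus strand, no match: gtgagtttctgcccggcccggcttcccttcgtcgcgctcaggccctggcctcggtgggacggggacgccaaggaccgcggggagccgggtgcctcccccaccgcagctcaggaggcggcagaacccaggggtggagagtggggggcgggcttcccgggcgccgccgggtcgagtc
TCF7 internal start, chr5:134123368-134123617, plus strand, CTTTGTT on the opposite strand: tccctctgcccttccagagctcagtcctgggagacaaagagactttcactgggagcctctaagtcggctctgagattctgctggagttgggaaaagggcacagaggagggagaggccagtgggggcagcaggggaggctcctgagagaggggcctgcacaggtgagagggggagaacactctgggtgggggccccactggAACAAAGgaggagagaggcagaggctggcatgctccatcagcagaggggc
TCF7L2 internal start, chr10:113126383-113126632, plus strand, CTTTGTT: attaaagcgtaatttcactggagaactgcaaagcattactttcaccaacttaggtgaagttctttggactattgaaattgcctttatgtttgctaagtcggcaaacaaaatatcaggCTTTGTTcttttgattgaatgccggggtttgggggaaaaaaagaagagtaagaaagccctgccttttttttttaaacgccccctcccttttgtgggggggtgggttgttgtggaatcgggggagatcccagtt
TLE4 internal start, chr9:79572927-79573176, plus strand, CTTTGAA: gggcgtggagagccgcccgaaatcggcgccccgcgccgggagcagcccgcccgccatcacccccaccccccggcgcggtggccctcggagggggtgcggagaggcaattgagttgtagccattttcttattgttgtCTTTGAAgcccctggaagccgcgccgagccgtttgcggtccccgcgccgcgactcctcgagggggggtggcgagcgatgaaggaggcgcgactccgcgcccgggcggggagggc
The match began 50 bases before the start in the TCF7 window, 133 bases before it in the TCF7L2 window and 114 bases before it in the TLE4 window. These 3 windows hold no annotated exon of their gene. The tables give 1 value per gene, so which start was used in either library is unknown, and a match is a run of letters, not a measured binding site. The single window of TLE1 and the 3 windows of TLE3 held no match.

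TCF7 (ENSG00000081059; GRCh38 chromosome 5, 134114711 to 134151865, plus strand), which encodes the factor TCF1, was the gene that differed most. It had 221 reads (1.28 FPKM) in the shSIK2 library and 22 reads (0.127 FPKM) in the scrambled library. The ratio was 10.05, with a counting interval from 6.47 to 16.4, or 11.1 at equal totals. Of all measured genes 1.90% had a log2 ratio at least as high as its 2.60. That share covers genes of all levels, and high ratios were more common at 1 to 2.5 FPKM, where TCF7 lies. The transcript stood clear of counting error in the shSIK2 library while remaining a low one: 49.8% of genes with any reads were lower there, and 19.5% in the scrambled library. TCF7 has 24 annotated transcripts, 14 of them coding, and some lack the beta-catenin-binding region; a gene-level value cannot separate these forms.

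Reads near and beyond TCF7 stand beside that value. SKP1, a ubiquitin ligase subunit encoded on the opposite strand, shares 210 exonic bases with TCF7 and had 2609 reads in the shSIK2 library and 2379 in the scrambled library. Whether counting used strand is not stated, so reads in the shared bases could belong to either gene. TCF7 is best known from T lymphocytes, so 10 markers of those cells were read as well: CD2, CD3D, CD3E, CD3G and TRAC had 0 reads in both libraries. The 10 markers summed to 152 reads in the shSIK2 library and 245 in the scrambled library, of which IL7R made up 124 in the shSIK2 library and 235 in the scrambled library. CD4 had 25 reads in the shSIK2 library and 3 in the scrambled library, and PTPRC, CD8A and LCK had at most 5 in either.

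TCF7L1 (chromosome 2, 85133410 to 85310388), encoding the repressor TCF3 of stem cell biology, was also more abundant in the shSIK2 library. It had 83 reads (1.10 FPKM) there and 46 reads (0.607 FPKM) in the scrambled library. The ratio of 1.80 (1.24 to 2.65) fell short of 2-fold, at equal totals as well (1.99). TCF7L2 (chromosome 10, 112950250 to 113167678), encoding TCF4, the TCF factor of the intestine and pancreas, went the other way. It had 137 reads (1.19 FPKM) in the shSIK2 library and 244 reads (2.11 FPKM) in the scrambled library. Its ratio was 0.561 (0.452 to 0.695), a 1.78-fold lower level, and 0.619 at equal totals. LEF1 (chromosome 4, 108047545 to 108168956) had 0 reads in both libraries, where 3 reads would have given 0.0326 FPKM; its antisense partner LEF1-AS1 had 0 reads in the shSIK2 library and 2 in the scrambled library.

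The make-up of the TCF/LEF family therefore differed more than its sum. By the exon length that the FPKM uses, the summed level was 3.56 FPKM in the shSIK2 library and 2.85 FPKM in the scrambled library, a ratio of 1.25 (1.08 to 1.45). The sum, its ratio and the shares below depend on that length, which the interval does not cover. TCF7L2 made up 33.3% of the sum in the shSIK2 library and 74.2% in the scrambled library. TCF7 made up 35.9% in the shSIK2 library and 4.48% in the scrambled library. TCF7L1 made up 30.8% in the shSIK2 library and 21.3% in the scrambled library. The level of TCF7 relative to TCF7L2 within one library does not depend on depth scaling: it was 1.08 (0.869 to 1.35) in the shSIK2 library and 0.0604 (0.0371 to 0.0935) in the scrambled library. In the shSIK2 library the 3 expressed factors could not be separated by counting error on this scale, with TCF7L1 at 0.925 of TCF7L2 (0.695 to 1.22). That near-equality depends on the gene length: per kilobase of the longest coding transcript TCF7 stood at 3.87, TCF7L2 at 1.93 and TCF7L1 at 1.63 in the shSIK2 library. In the scrambled library TCF7L2 was 16.6 times TCF7 (10.7 to 26.9) and 3.48 times TCF7L1 (2.53 to 4.87).

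**Figure D2:**
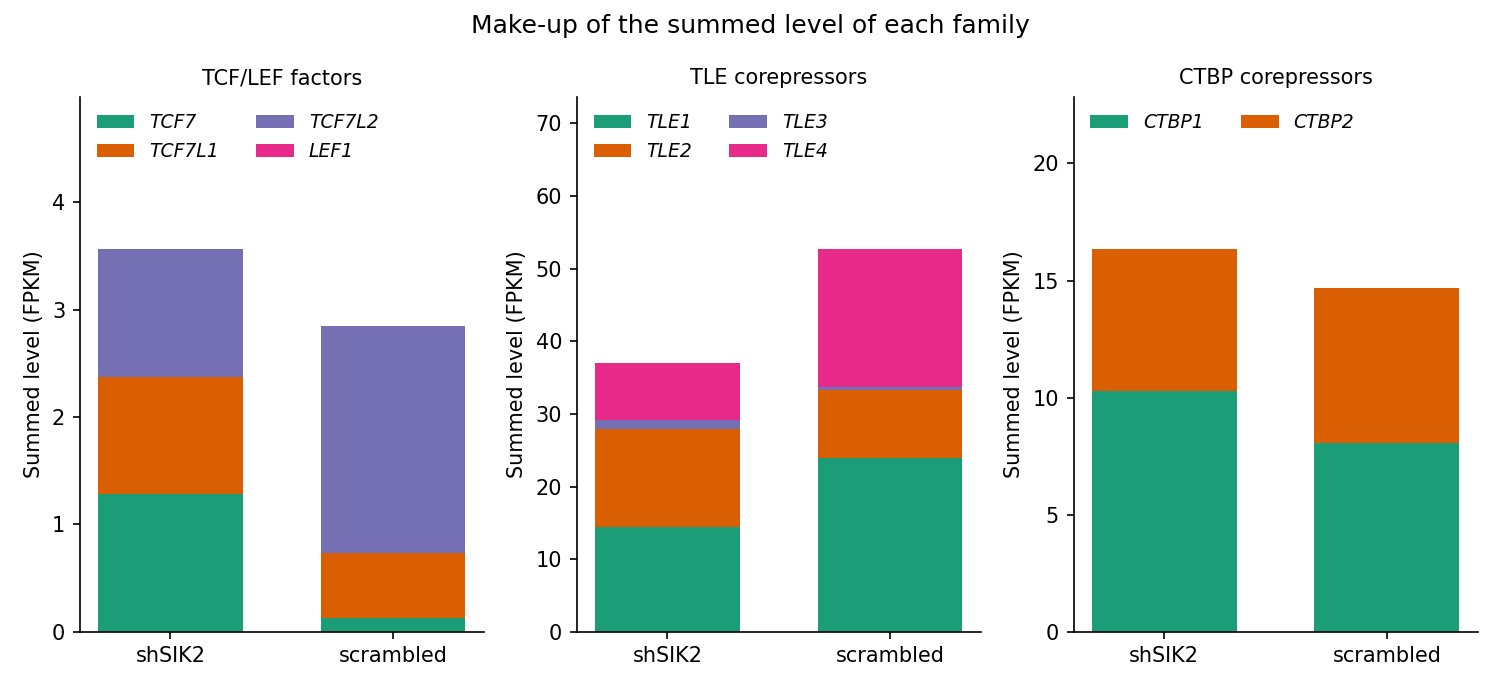
Stacked bars give the summed FPKM of the TCF/LEF factors, the TLE corepressors and the CTBP corepressors, shSIK2 left of scrambled, with 1 colour per gene. TCF7L2 fills most of the TCF/LEF bar of the scrambled library, while the 3 expressed factors have near-equal parts in the shSIK2 library by this exon length; LEF1 has no height in either.

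Among the corepressors, TLE4 and TLE1, which lie next to each other on the long arm of chromosome 9, were both lower in the shSIK2 library. TLE4 (79571773 to 79726882, plus strand) had 1086 reads (7.73 FPKM) in the shSIK2 library and 2663 reads (18.95 FPKM) in the scrambled library. Its ratio was 0.408 (0.380 to 0.438), 2.45-fold lower, and 0.450 at equal totals. Of all measured genes 4.80% had a log2 ratio at least as low as its -1.28. TLE1 (81583683 to 81689305, minus strand) had 1221 reads (14.5 FPKM) in the shSIK2 library and 2011 reads (23.9 FPKM) in the scrambled library, a ratio of 0.607 (0.565 to 0.652). It was 1.65-fold lower, short of the 2-fold rule, and 16.1% of measured genes were at least as low. The processed pseudogene TLE1P1 had 3 reads in the shSIK2 library and 16 in the scrambled library.

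TLE3 and TLE2 were higher in the shSIK2 library. TLE3 (chromosome 15, 70047790 to 70098176), a corepressor also known for promoting fat cell differentiation, had 280 reads (1.29 FPKM) in the shSIK2 library and 88 reads (0.406 FPKM) in the scrambled library. The ratio was 3.18 (2.496 to 4.09), and 6.24% of measured genes had a log2 ratio at least as high as its 1.46. That share covers genes of all levels, and high ratios were more common at 1 to 2.5 FPKM, where TLE3 lies. TLE2 (chromosome 19, 2997638 to 3047635) had 930 reads (13.4 FPKM) in the shSIK2 library and 650 reads (9.38 FPKM) in the scrambled library. Its ratio of 1.43 (1.29 to 1.58) was below 2-fold. All 4 intervals excluded 1, so within counting error the family split into a lower pair and a higher pair. With the GC and length trend described below removed, the log2 ratio of TLE2 was 0.07, against 0.51 before. Its place in the higher pair thus depends on that adjustment.

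The TLE family as a whole was less abundant in the shSIK2 library, and the 2 lower genes were the 2 most abundant in the scrambled library by either gene length tried. The summed level was 36.9 FPKM in the shSIK2 library and 52.6 FPKM in the scrambled library, a ratio of 0.702 (0.672 to 0.734), or 1.42-fold lower. TLE4 contributed 20.9% of the sum in the shSIK2 library and 36.0% in the scrambled library, and TLE2 contributed 36.3% in the shSIK2 library and 17.8% in the scrambled library. By exon-union length TLE1 was the largest part, with 39.3% in the shSIK2 library and 45.4% in the scrambled library. Per kilobase of the longest coding transcript it was not, since TLE2 (20.03) then stood above TLE1 (18.3) in the shSIK2 library and TLE4 (31.9) above TLE1 (30.1) in the scrambled library. These gaps are small, and no counting interval was computed on that scale. TLE3 remained a minor part, at 3.496% in the shSIK2 library and 0.771% in the scrambled library. TLE2 stood at 0.925 of TLE1 (0.849 to 1.01) in the shSIK2 library and at 0.393 (0.359 to 0.429) in the scrambled library. Set against the TCF/LEF sum, the TLE sum was 10.4 times as large in the shSIK2 library and 18.5 times in the scrambled library. Both values are by exon-union length and depend on it.

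The CTBP genes differed least, as deposited and at equal totals. With the GC and length trend removed, the log2 ratio of TLE2 (0.07) was smaller in size than that of CTBP2 (-0.13). CTBP1 (chromosome 4, 1211448 to 1249953) had 1477 reads (10.3 FPKM) in the shSIK2 library and 1155 reads (8.05 FPKM) in the scrambled library, a ratio of 1.28 (1.18 to 1.38). CTBP2 (chromosome 10, 124984317 to 125161170), whose locus also encodes the synaptic ribbon protein RIBEYE from an alternative start, had 1134 reads (6.04 FPKM) in the shSIK2 library and 1247 reads (6.64 FPKM) in the scrambled library. Its ratio was 0.909 (0.838 to 0.986) as deposited and 1.002 at equal totals, so its direction rests on the scaling. The pair summed to 16.3 FPKM in the shSIK2 library and 14.7 FPKM in the scrambled library, and CTBP1 exceeded CTBP2 by 1.71 times (1.58 to 1.84) in the shSIK2 library and by 1.21 times (1.12 to 1.31) in the scrambled library. Both genes overlap others on the opposite strand. CTBP1 shares 305 exonic bases with CTBP1-DT (323 reads in shSIK2, 358 in scrambled) and 810 with CTBP1-AS (33 reads in shSIK2, 29 in scrambled). CTBP2 shares 3416 with ZRANB1, a deubiquitinase gene with 204 reads in the shSIK2 library and 296 in the scrambled library. It also shares 379 with the antisense gene AL731571.1 (42 reads in shSIK2, 46 in scrambled). The processed pseudogene CTBP2P4 had 20 reads in the shSIK2 library and 12 in the scrambled library.

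**Figure D3:**
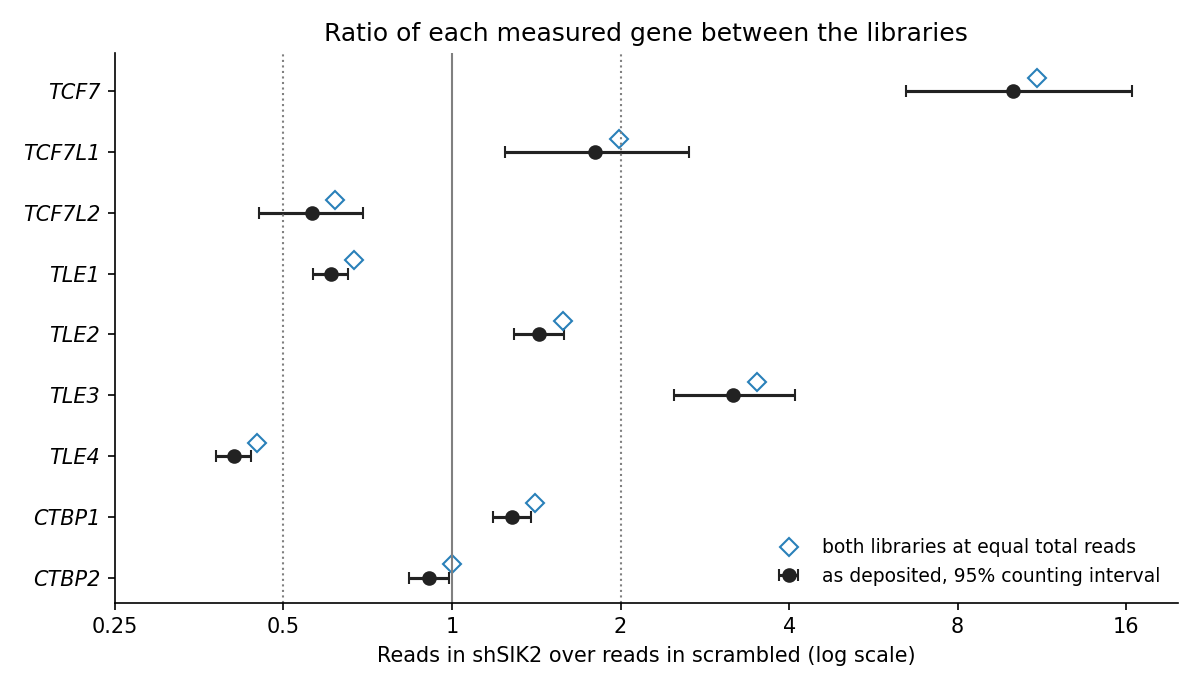
Reads in the shSIK2 library over reads in the scrambled library for the 9 measured genes on a log axis, as deposited (black, with exact 95% counting intervals) and with both libraries at equal total reads (open diamonds); dotted lines mark 2-fold. TCF7, at 10.05, and TLE3, at 3.18, lie to the right of the upper line and TLE4, at 0.408, to the left of the lower one, and the diamond of CTBP2 sits at 1.002.

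Ordered by level, the shSIK2 library had TLE1, TLE2, CTBP1, TLE4 and CTBP2 ahead of a group of 4 near 1 FPKM, namely TLE3, TCF7, TCF7L2 and TCF7L1, whose counting intervals overlap. The intervals of TLE1 and TLE2 in that library overlap as well. The order in the scrambled library was TLE1, TLE4, TLE2, CTBP1, CTBP2, TCF7L2, TCF7L1, TLE3 and TCF7, with the intervals of TCF7L1 and TLE3 overlapping. These orders rest on the exon length that the FPKM uses, the union of all annotated exons. That length is 10063 bases for TCF7 and 12634 for TLE3, against 3330 for the longest coding transcript of TCF7 and 6004 for that of TLE3. Per kilobase of the longest coding transcript, TCF7 would stand at 0.385 in the scrambled library and TCF7L2 at 3.44. On that scale CTBP1 (20.2) stood just above TLE2 (20.03) in the shSIK2 library, and TLE4 (31.9) just above TLE1 (30.1) in the scrambled library. Counting intervals were not computed on that scale, so neither lead is settled. Ratios of a single gene between libraries do not depend on this length, whereas sums over a family, their ratios and shares do.

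Ratios in these libraries followed base composition across protein-coding genes, with a Spearman rho of 0.34 between log2 ratio and GC content over 10666 genes, which are not independent replicates. Of the 9 measured genes, TLE2 (62.5% GC), CTBP1 (61.9%) and TLE3 (59.9%) were the richest in GC, and TCF7L2 (48.5%) and TLE4 (51.3%) the poorest. After medians in bins of GC content and exon length were subtracted, and the median of all measured genes restored, the log2 ratio was 2.41 for TCF7, 1.21 for TLE3 and -1.12 for TLE4. All 3 still passed 2-fold, where 9.12% of all measured genes were higher and 8.53% lower. TLE2 stood at 0.07 with the adjustment and 0.51 without it, and CTBP1 at -0.06 and 0.35, so the higher level of both nearly vanished. The adjusted value of CTBP1 was negative but above the median of all measured genes, -0.11. TLE1 stood at -0.81, TCF7L2 at -0.66 and TCF7L1 at 0.56. The median of the 9 genes moved to -0.06, against -0.11 for all measured genes.

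**Figure D4:**
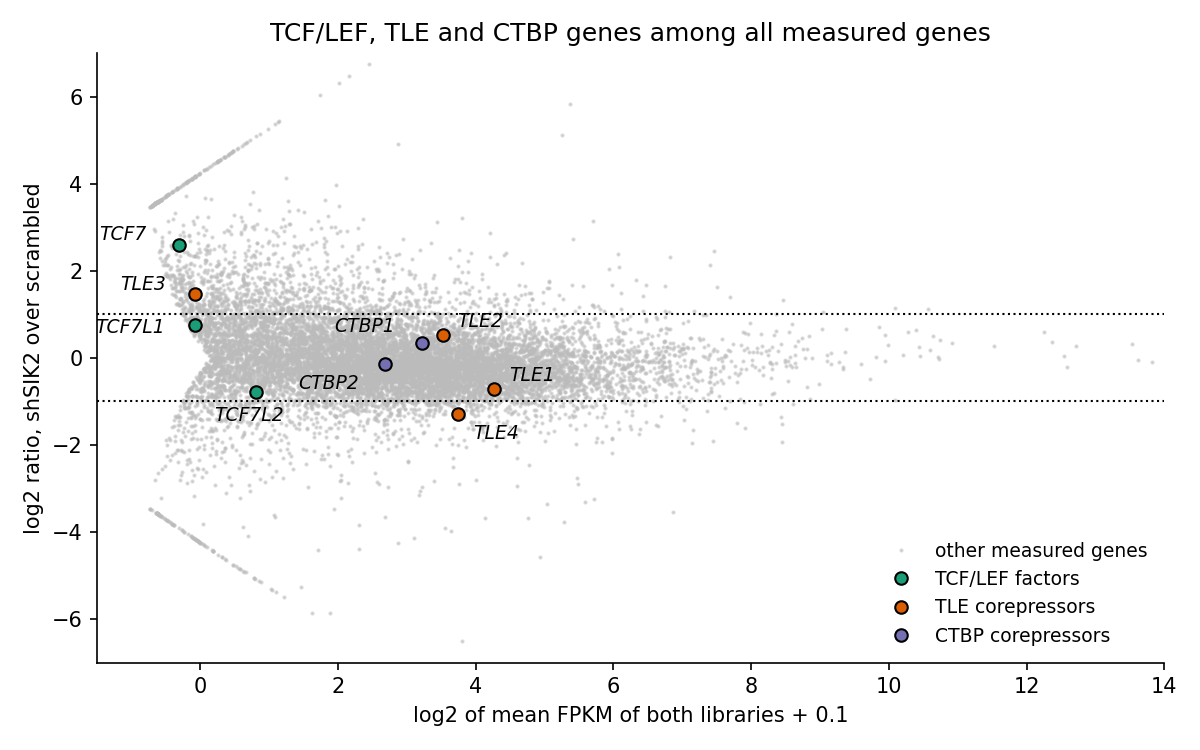
Each grey point is 1 of the measured genes, by the log2 of its mean FPKM and its log2 ratio of shSIK2 over scrambled; coloured points are the 9 measured TCF/LEF, TLE and CTBP genes and dotted lines mark 2-fold. TCF7 and TLE3 lie at the low-level end, where grey points spread widely (22.9% of genes of 1 to 2.5 FPKM were at least 2-fold higher), and TLE4 lies at a level where 6.59% were at least 2-fold lower.

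The proteins that meet these factors in the nucleus were read from lists. CTNNB1, which encodes beta-catenin, had near-equal levels, with 19.4 FPKM in the shSIK2 library and 19.99 FPKM in the scrambled library (ratio 0.969, 0.928 to 1.01). Of 18 genes on the list of beta-catenin coactivators, CTNNB1 itself included and all measured, 2 were lower and 0 higher by the 2-fold rule. The median log2 ratio of the list was -0.31 against -0.11 for all measured genes. Of all measured genes 8.28% were lower and 11.0% higher, and none of the counts for this list and the 4 that follow is read as a result about its list. The lower ones were TBL1X, which bridges beta-catenin to chromatin, at 3.16 FPKM in the shSIK2 library and 8.28 FPKM in the scrambled library, and RUVBL1, an ATPase of chromatin remodelling complexes. RUVBL1 stood at 11.1 FPKM in the shSIK2 library and 27.2 FPKM in the scrambled library. EP300, an acetyltransferase that beta-catenin recruits, had a log2 ratio of -0.79. BCL9L, an adaptor between beta-catenin and Pygopus, had the highest log2 ratio of the list, at 0.87 as deposited and 1.003 at equal totals, where it counted as higher.

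Of 17 genes whose products modify or oppose TCF or TLE proteins, 15 were measured, 1 of them at least 2-fold higher and 0 lower, against 11.0% and 8.28% of all measured genes (median -0.11). At equal totals 2 were higher, against 13.4%. TNIK, a kinase that phosphorylates TCF4, had 192 reads (1.31 FPKM) in the shSIK2 library and 83 reads (0.567 FPKM) in the scrambled library, a ratio of 2.31 (1.78 to 3.03). XIAP, a ubiquitin ligase that removes TLE from TCF, had a log2 ratio of -0.996, just short of 2-fold lower, with 9.33 FPKM in the shSIK2 library and 18.7 FPKM in the scrambled library. SOX9, which promotes beta-catenin breakdown, had a ratio of 1.80 (1.61 to 2.02). TLE6, a shorter relative of the TLE genes next to TLE2, had 65 reads in the shSIK2 library and 30 in the scrambled library, a log2 ratio of 0.97 as deposited and 1.10 at equal totals. AES, the truncated family member that lacks the WD-repeat domain, had 20.4 FPKM in the shSIK2 library and 20.9 FPKM in the scrambled library (ratio 0.975, 0.914 to 1.04). TLE7 had no reads in either.

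Of 20 DNA-binding and deacetylase partners of TLE proteins 12 were measured, 1 at least 2-fold higher and 0 lower, against 11.0% and 8.28% of all measured genes (median -0.02). With the GC and length trend removed the count turned to 0 higher and 2 lower, against 9.12% and 8.53%; the lower ones were then HES6, at -1.30 on the log2 scale, and HES4, at -1.05. The higher one was FOXD3, a forkhead factor of neural crest and pluripotent cells, with 149 reads (4.16 FPKM) in the shSIK2 library and 59 reads (1.65 FPKM) in the scrambled library, a ratio of 2.53 (1.86 to 3.48). Its log2 ratio was 0.64 once the GC and length trend was removed. HES1, the Notch-induced repressor that works through TLE, had a ratio of 1.79 (1.38 to 2.33), HHEX 1.60 (1.30 to 1.97) and HES6 0.631 (0.529 to 0.751). The deacetylase HDAC1 stood at 48.4 FPKM in the shSIK2 library and 34.9 FPKM in the scrambled library, a ratio of 1.39, and HDAC2 at 10.4 FPKM in the shSIK2 library and 10.3 FPKM in the scrambled library.

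Of 25 partners of CTBP proteins 19 were measured, 0 at least 2-fold higher and 2 lower, against 11.0% and 8.28% of all measured genes (median -0.19). LCOR, a ligand-dependent nuclear receptor corepressor, had 1.34 FPKM in the shSIK2 library and 3.26 FPKM in the scrambled library, a ratio of 0.409 (0.372 to 0.451); its log2 ratio was -0.99 with the trend removed, short of 2-fold. ZNF516 had 0.617 FPKM in the shSIK2 library and 1.39 FPKM in the scrambled library, with a log2 ratio of -1.06 as deposited and -0.93 at equal totals. ZEB2 and KLF12 had log2 ratios of -0.83 and -0.82. ZEB1, the zinc-finger repressor of epithelial genes and a main CTBP partner, stood at 26.1 FPKM in the shSIK2 library and 29.6 FPKM in the scrambled library.

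Of 18 genes that TCF and beta-catenin induce as feedback or common targets, 5 were measured, 0 of them 2-fold higher or lower, against 11.0% and 8.28% of all measured genes (median -0.49). With the trend removed ZNRF3 counted as lower, at -1.01 on the log2 scale. ZNRF3 had 95 reads in the shSIK2 library and 177 in the scrambled library, and DKK1 had 184 in the shSIK2 library and 303 in the scrambled library. MYC stood at 87.6 FPKM in the shSIK2 library and 123 FPKM in the scrambled library. Others stood higher in the shSIK2 library: TNFRSF19 had a ratio of 1.52 (1.28 to 1.80) and the cyclin gene CCND1 one of 1.37 (1.296 to 1.44). AXIN2, a negative feedback regulator of the pathway, stayed below 1 FPKM, with 83 reads in the shSIK2 library and 56 in the scrambled library, a ratio of 1.48 (1.04 to 2.12). Of the 13 unmeasured targets, AXIN2 included, 7 had no reads in either library. SP8 had 0 reads in the shSIK2 library and 19 in the scrambled library. The rest had more reads in the shSIK2 library: NOTUM 38 there and 18 in the scrambled library, NKD2 24 and 13, NKD1 3 and 1, and CYP26A1 5 and 0.

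**Figure D5:**
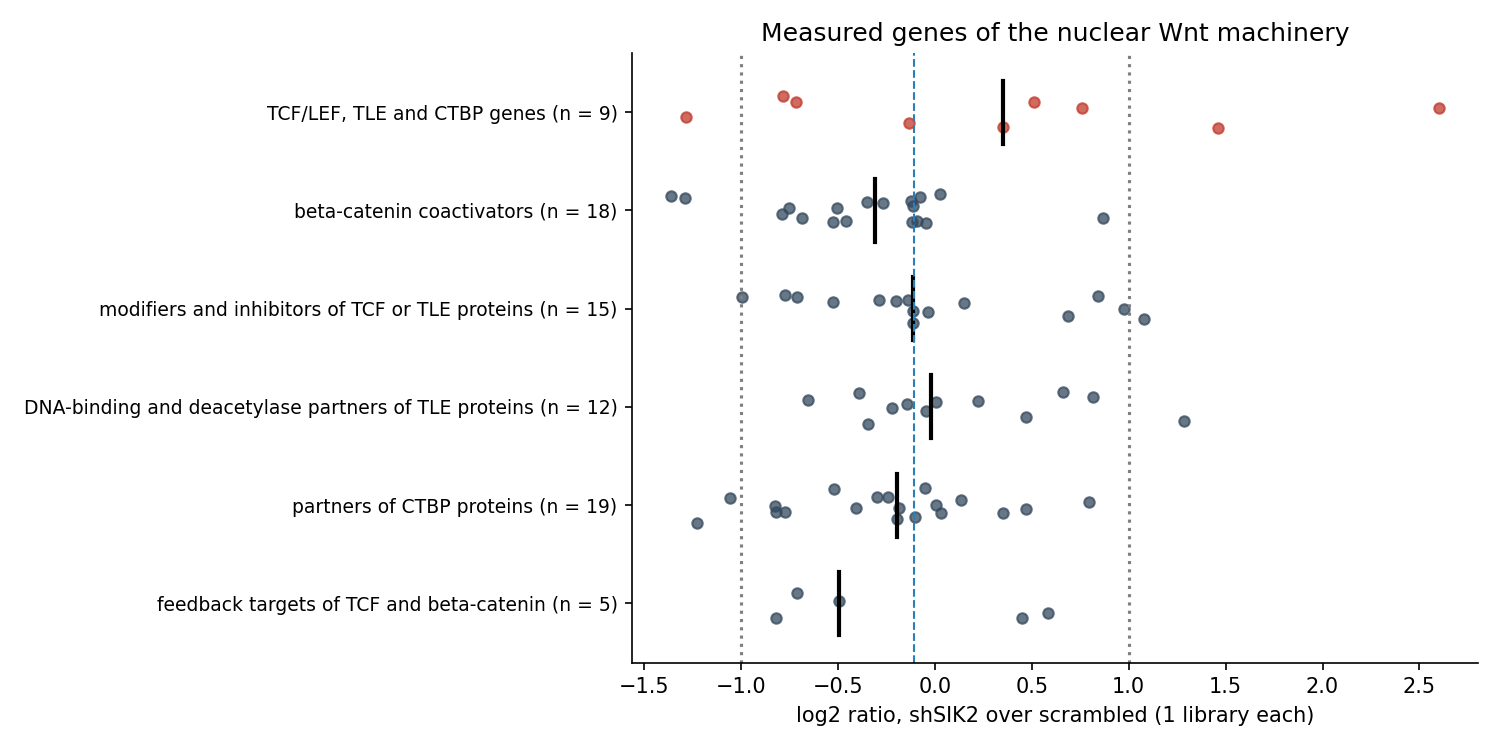
Log2 ratio of shSIK2 over scrambled for each measured gene of the TCF/LEF, TLE and CTBP set (red) and of the 5 lists around it (dark blue); black bars are list medians, the dashed line the median of all measured genes (-0.11) and dotted lines 2-fold. TCF7, at 2.60, lies beyond every other gene plotted, and each list spans both sides of the dashed line.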

How the data were processed

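Total RNA was extracted with Trizol and sequenced as Illumina libraries, per the labels' protocols. The submitters' processing notes list HISAT2 2.0.5 and hg18. The sources used here do not name the read counter, annotation, strand setting or FPKM formula. The authors deposited FPKM values for each library, per the file headers, with no counts.

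All 58735 identifiers matched GENCODE 29 on GRCh38, which gave symbols, exon lengths, GC content and coordinates. FPKM times exon length came out as whole multiples of one step in both tables for 100% of values above 0 (tolerance 0.001 reads, or one millionth of larger values). That fit bears on the gene models, whereas the build aligned to remains unsettled. The step was the same in both libraries, 58.3, so the deposited values carry no correction for their different depths. The multiples were used as reads. Ratios of reads have exact Clopper-Pearson 95% intervals, conditional on their sum, and ratios of summed FPKM have delta-method ones. Reads carried no molecular identifiers, so intervals treat possible PCR copies as independent. No test was run on 1 library against 1. The pseudocount was 0.1 FPKM, the minimum 1 FPKM, and trends were removed in 20 bins each. Read recovery, calls, intervals and trend removal were tested on simulated data. Promoter windows came from RefSeq (GRCh38.p14).

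The genes, lists and tests were chosen with earlier results of these data known. Named genes were the 10 genes, SIK2, CTNNB1, overlapping genes and up to 4 measured genes per list with the largest absolute log2 ratio. AES, TLE7, HDAC1, HDAC2, HES4, CCND1, cell markers beyond that rule and neighbouring genes were named after their values were seen. So were the unmeasured targets AXIN2, SP8, NOTUM, NKD1, NKD2 and CYP26A1. Alternatives were other pseudocounts, minimums, thresholds and scalings, and, chosen after seeing the data, another gene length. With 2 libraries, no genes of like pattern were sought. Scripts ran in Python 3.11.15; matplotlib 3.10.9 drew the figures, and scipy 1.17.1, pandas 2.3.3 and numpy 2.4.6 did the calculations.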

Additional observations from a re-analysis of the deposited data

How the results depend on the processing

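TCF7 and TLE4 passed 2-fold, in the same direction, under every pseudocount, scaling and trend alternative run; their log2 ratios ranged from 1.02 to 3.23 and from -1.29 to -1.12. TLE3 ranged from 0.70 to 1.65 and fell short of 2-fold with a pseudocount of 1 FPKM, which left 1 of the 9 genes at least 2-fold higher. A minimum of 5 FPKM kept 5 genes, 0 of them 2-fold higher, because TCF7 and TLE3 are below it, and 1 was lower. Of all genes between 5 and 25 FPKM, the range that holds these 5, 6.00% were higher and 6.59% lower. The median log2 ratio of the kept genes changed sign, to -0.13 from 0.35, against -0.18 for that range. Shares of all genes were not computed at this minimum or at the pseudocount of 1 FPKM. Neither count is read as a result about the set. At a threshold of 1.5-fold 3 genes were higher (background 19.7%) and 3 lower (21.3%), the added ones being TCF7L1, TLE1 and TCF7L2. At equal total reads the log2 ratio of the summed level was -0.37 for the TLE genes and 0.29 for the CTBP genes, against -0.51 and 0.15 as deposited. With the median of all measured genes set to 0 it was -0.40 and 0.26. Of the 9 genes TCF7 had the fewest reads in a library, 22 in the scrambled one. No paired analysis was possible because each group holds 1 library, and for the same reason none could be left out.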

Other observations

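TLE1 and TLE4 are consecutive among the measured protein-coding genes of chromosome 9, 1857 kb apart, and both were lower in the shSIK2 library. The measured genes around them had no common direction. PSAT1, a serine synthesis enzyme 1242 kb before TLE4, stood at 117.6 FPKM in the shSIK2 library and 361 FPKM in the scrambled library (log2 ratio -1.62). GNA14, a G protein subunit further out, stood at 3.49 FPKM in the shSIK2 library and 0.685 FPKM in the scrambled library (log2 ratio 2.19). Among the 5 measured genes on each side of TLE4, TLE1 included, 1 was higher and 1 lower by the 2-fold rule, against 11.0% and 8.28% of all measured genes. Their median log2 ratio was -0.23. Around TLE1 the counts were 1 and 2, TLE4 included, with a median of -0.46. None of these counts is read as a result about the region.

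On chromosome 19, TLE6, TLE2 and AES lie in a row within a short stretch. Their log2 ratios were 0.97, 0.51 and -0.04, and after removal of the GC and length trend 0.64, 0.07 and -0.35. The 10 measured genes around TCF7 held 0 at least 2-fold higher and 0 lower, against 11.0% and 8.28% of all measured genes. Their log2 ratios ran from -0.63 to 0.23. With shares that low among all genes, 0 of 10 is not read as a result about that stretch. Around TLE3 log2 ratios ran from -1.48 to 0.40. These neighbours were picked by position after the values of the 10 genes were known, and no test was run.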
